A study of Mus musculus with 16 samples.

Results

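The small leucine-rich proteoglycans are a family of secreted matrix proteins, and 10 of its genes (Dcn, Bgn, Aspn, Fmod, Lum, Prelp, Kera, Omd, Ogn and Epyc) were followed here across 4 mouse tendons. They were chosen by name from the 41204 genes of the deposited count table, and all 10 were found there and passed the filter on low counts. Each protein has a core of leucine-rich repeats that binds collagen fibrils or other matrix proteins, and many members carry chondroitin, dermatan or keratan sulfate chains. In tendon these proteins are known for controlling how collagen fibrils grow and fuse. Decorin and biglycan are also known to bind growth factors and cell-surface receptors.

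RNA was sequenced from the Achilles tendon, the forepaw flexor tendon (Flexor), the patellar tendon and the supraspinatus tendon of C57BL/6J mice, with 4 libraries per tendon and 16 in all. The labels give no treatment, mutation or transgene for any group, and neither age nor sex. Libraries are numbered by mouse within each tendon, and the labels do not say whether an equal number in 2 tendons means the same animal or whether tendons were pooled. The design text names the difference between each pair of tendons as the question, which makes 6 comparisons that share libraries.

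Total counts were 34559686 to 63235636 in the Patellar libraries and 84414005 to 107805065 in the other tendons. The tendon genes Scx and Tnmd were detected in every library. Scx averaged 18.8 CPM (counts scaled to a common library size) in Achilles, 4.90 in Flexor and 102 in Patellar, while Supraspinatus had 56.3. A list of 10 tenocyte markers that includes both genes and Fmod took 2.63% to 6.16% of counts in Patellar. Its share was 1.72% to 1.97% in Flexor, within the ranges of Supraspinatus (0.734% to 3.10%) and Achilles (0.965% to 3.04%). The low Scx of Flexor was therefore not matched by the summed share of the list. As single genes, Tnmd, Thbs4, Cilp2, Ptx4, Col1a1 and Col1a2 also had their lowest mean in Flexor. Comp had its highest mean there (3704 CPM), and Mkx and Fmod had neither. Skeletal muscle markers (23 genes, none at 0 in any tendon) took 0.0608% to 0.918% of counts in Patellar, 5.37% to 10.1% in Achilles, 8.30% to 11.7% in Flexor and 15.8% to 16.8% in Supraspinatus. A set of 7 rRNA-like genes took 13.2% to 42.0% of counts in Patellar and 1.86% to 4.91% elsewhere. Muscle content, rRNA-like reads and depth therefore cannot be told apart from the Patellar group. In bulk tissue, fewer cells of a type and less RNA per cell cannot be told apart.

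Most members lie in gene clusters on the GRCm38 mouse genome. Dcn (chr10:97479609-97518143), Lum (chr10:97565128-97572703), Kera (chr10:97606879-97613692) and Epyc (chr10:97644068-97682454) stand in a row over 202.8 kb, all on the plus strand. Aspn (chr13:49544443-49567565), Omd (chr13:49582462-49592822) and Ogn (chr13:49608046-49624501) lie on the plus strand within 80.06 kb. Prelp (chr1:133910304-133921414, minus strand) and Fmod (chr1:134037254-134048277, plus strand) span 138.0 kb, and Bgn (chrX:73483602-73495933, plus strand) stands alone.

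The 250 bases before the RefSeq start (GRCm38.p6) of the chromosome 13 trio are printed because their highest means lay in 3 different tendons. These were Supraspinatus for Aspn, Achilles for Omd and Patellar for Ogn. In the edgeR test given below, only Ogn was called between its highest tendon and each of the others. Sequences run 5′ to 3′ on the plus strand, and capitals mark E-boxes (CANNTG), the motif read by basic helix-loop-helix factors, the class to which the tendon factor scleraxis belongs. The windows are chr13:49544193-49544442 for Aspn, chr13:49582212-49582461 for Omd and chr13:49607765-49608014 for Ogn.
Aspn: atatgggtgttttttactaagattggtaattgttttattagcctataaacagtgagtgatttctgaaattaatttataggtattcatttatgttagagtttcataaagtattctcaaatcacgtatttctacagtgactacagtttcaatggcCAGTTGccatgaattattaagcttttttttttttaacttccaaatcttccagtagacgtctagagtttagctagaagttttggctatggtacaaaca
Omd: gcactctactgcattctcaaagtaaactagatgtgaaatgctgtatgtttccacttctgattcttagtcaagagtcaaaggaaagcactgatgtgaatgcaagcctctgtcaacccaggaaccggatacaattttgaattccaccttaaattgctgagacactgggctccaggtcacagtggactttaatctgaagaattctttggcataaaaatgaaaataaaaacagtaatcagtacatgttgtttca
Ogn: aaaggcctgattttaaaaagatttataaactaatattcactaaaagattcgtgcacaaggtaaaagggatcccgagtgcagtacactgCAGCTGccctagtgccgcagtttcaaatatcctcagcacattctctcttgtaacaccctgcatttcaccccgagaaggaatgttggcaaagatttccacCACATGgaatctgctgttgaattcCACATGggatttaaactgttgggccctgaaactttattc
The Aspn window held 1 E-box, 97 bases before the start. The Omd window held 0, and the Ogn window held 3, at 162, 63 and 39 bases before the start. For scale, 66.2% of 32851 RefSeq promoters of the same length held at least 1 E-box, with a median of 1. A TATAAA match on either strand occurred 2 times in the Aspn window, 0 times in the Omd window and 2 times, overlapping, in the Ogn window, against 12.4% of all promoters with at least 1. The AP-1 motif TGANTCA occurred in none of the 3 windows and in 6.75% of all promoters. These matches are a description of letters in the windows, and no binding was measured. RefSeq entries matched 8 of the 10 members, all but Dcn and Lum.

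Across the 4 tendons, 9 of 10 members differed (edgeR quasi-likelihood F test, adjusted p under 0.05), where 64.9% of the 23754 genes tested did. Dcn was the exception, with an adjusted p of 0.102, and Lum was the closest to the threshold at 0.0496. Levels below are CPM after trimmed-mean (TMM) scaling, and log2 fold changes carry the standard error (SE) of the edgeR fit, with p-values adjusted by Benjamini-Hochberg over all genes tested.

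**Figure D1:**
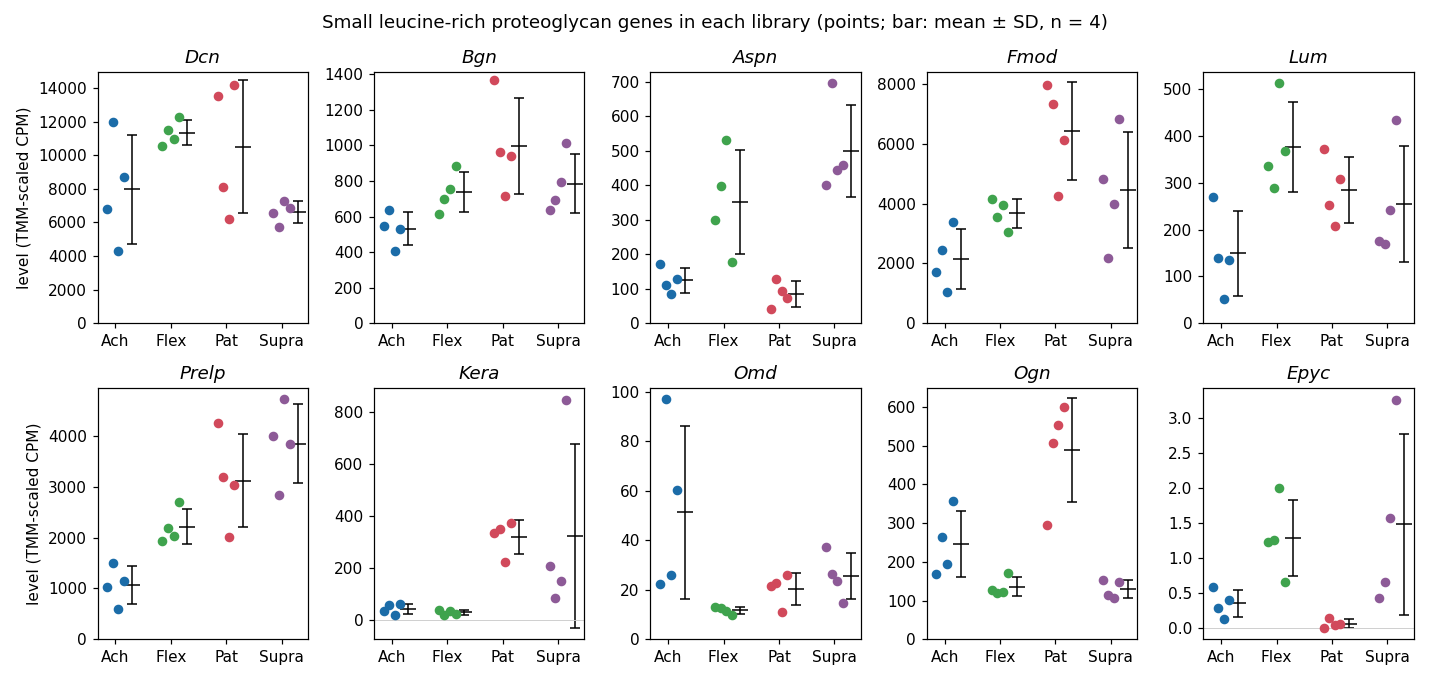
TMM-scaled CPM (linear axes, 1 per gene) of each of the 10 members by tendon, with a point for each library and a bar for the mean ± SD (n = 4). Dcn overlaps widely among Achilles, Flexor and Patellar, Ogn is highest in Patellar (296 to 600 CPM), and 1 Supraspinatus library stands at 848 CPM of Kera.

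Against Achilles, members that changed were mostly higher. In Flexor 3 were higher (Aspn, Lum, Prelp) and 2 lower (Omd, Ogn), where 16.2% of all genes were called. In Patellar 5 were higher (Bgn, Fmod, Prelp, Kera, Ogn) and 2 lower (Omd, Epyc), where 38.4% were called. In Supraspinatus 6 were higher (Bgn, Aspn, Fmod, Prelp, Kera, Epyc) and 1 lower (Ogn), where 33.6% were called. The median log2 fold change of the 10 members was 0.64 in Flexor, 0.92 in Patellar and 0.91 in Supraspinatus against Achilles, and that of all genes tested lay between −0.04 and 0.00.

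Among the other 3 pairs fewer members passed the test. Patellar against Flexor gave 2 higher (Kera, Ogn) and 2 lower (Aspn, Epyc), where 50.3% of all genes were called. Supraspinatus against Flexor gave 3 higher (Prelp, Kera, Omd) and 0 lower, where 27.1% were called. Supraspinatus against Patellar gave 2 higher (Aspn, Epyc) and 1 lower (Ogn), where 53.3% were called. In both comparisons of Patellar with a tendon other than Achilles, the members' share was below the share of all genes. The family has only 10 members, so this gap rests on few genes, and it was not tested. With Achilles 3 and Patellar 3 left out, the libraries with the lowest Dcn of their tendons and chosen after those levels were seen, 8 members were called in Patellar against Flexor in place of 4.

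**Figure D2:**
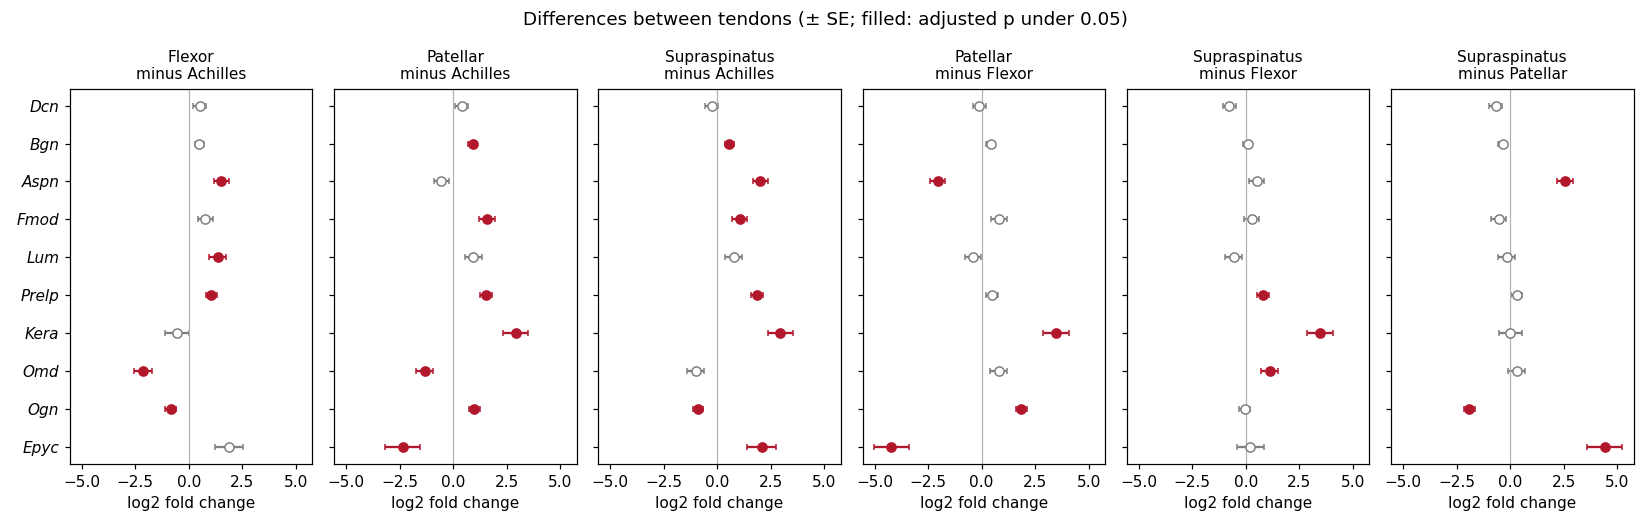
Log2 fold change with SE (from the edgeR F statistic) of each member in each of the 6 pairs of tendons, with filled points for adjusted p under 0.05. Epyc reaches 4.43 in Supraspinatus minus Patellar, and Kera 3.48 in Supraspinatus minus Flexor.

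A gene was called distinct to a tendon when it was called in the same direction against each of the other 3, which held for 3 members and for 37.9% of all genes. Prelp was lower in Achilles than in every other tendon, where 1.73% of all genes were distinct to Achilles. Ogn was higher and Epyc lower in Patellar than in every other tendon, where 24.6% of all genes were distinct to Patellar. No member was distinct to Flexor or Supraspinatus, where 5.14% and 12.3% of all genes were.

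Dcn encodes decorin, the most abundant proteoglycan of tendon, which limits the lateral growth of collagen fibrils. Its level was 6799, 11977, 4323 and 8723 CPM in the Achilles libraries and 10558, 11516, 10951 and 12265 CPM in Flexor. Patellar libraries had 13540.3, 8109, 6185 and 14152 CPM, and Supraspinatus libraries 6563, 5735, 7245 and 6862 CPM. Flexor and Supraspinatus were tight and did not overlap, whereas Achilles and Patellar spread widely and overlapped each other. No pair passed the edgeR test. The closest was Supraspinatus minus Flexor, at −0.78 log2 (SE 0.30, edgeR adjusted p = 0.0691), and with only the 8 libraries of that pair in the fit its adjusted p was 0.00135. DESeq2 called Dcn lower in Supraspinatus than in Flexor (log2 −0.76, adjusted p = 0.0312) and than in Patellar (log2 −0.68, adjusted p = 0.0339), so the absence of a call for Dcn depended on the fit.

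Bgn encodes biglycan, the closest relative of decorin, which also signals through Toll-like receptors. Achilles libraries had 547, 635, 409 and 531 CPM and Patellar libraries 1367, 964, 714 and 940.2 CPM. Those groups did not overlap, and Bgn was 1.88-fold higher in Patellar (log2 0.91, SE 0.21, edgeR adjusted p = 0.00299). Flexor (613, 699, 758 and 885 CPM) and Supraspinatus (638, 692, 797 and 1012 CPM) had means between them. Bgn was 1.48-fold higher in Supraspinatus than in Achilles (log2 0.56, SE 0.21, edgeR adjusted p = 0.0481), a call lost with the muscle marker level as a covariate (edgeR adjusted p = 0.13) and without any of 11 single libraries.

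Aspn encodes asporin, a relative of decorin that carries no glycosaminoglycan chain and is known to bind TGF-β. It was high in Flexor and Supraspinatus and low in Achilles and Patellar. Supraspinatus libraries had 399, 695, 442 and 459 CPM and Flexor libraries 298, 398, 530.2 and 176 CPM. Achilles libraries had 171, 111, 85.9 and 127 CPM and Patellar libraries 41.0, 129, 94.1 and 73.9 CPM. No library of the first pair of tendons overlapped one of the second. Aspn was 5.91-fold higher in Supraspinatus than in Patellar (log2 2.56, SE 0.37, edgeR adjusted p = 2.57e-05) and 2.83-fold higher in Flexor than in Achilles (SE 0.35 on the log2 scale, edgeR adjusted p = 0.00833). It did not pass the test between Supraspinatus and Flexor (log2 0.51, 95% interval −0.17 to 1.19) or between Patellar and Achilles (log2 −0.55, 95% interval −1.23 to 0.13). With the muscle marker level as a covariate, Patellar minus Achilles was −2.50 log2 and called (edgeR adjusted p = 0.0242), which made Aspn distinct to Patellar in that fit.

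Fmod encodes fibromodulin, a keratan sulfate member that binds collagen and takes part in fibril maturation. Achilles libraries had 1729, 2456, 1047 and 3388 CPM, and Patellar libraries 7982, 7348, 4269 and 6117 CPM. All Patellar libraries were above all Achilles libraries, and Fmod was 2.98-fold higher in Patellar (log2 1.58, SE 0.36, edgeR adjusted p = 0.00278). With the muscle marker level as a covariate the difference was 1.74 log2 and not called (edgeR adjusted p = 0.111). Flexor libraries (4147, 3539, 3954 and 3057 CPM) and Supraspinatus libraries (4815, 2188, 3979 and 6838 CPM) overlapped each other. Supraspinatus was 2.07-fold above Achilles (log2 1.05, SE 0.36, edgeR adjusted p = 0.0331), a call lost with that covariate (edgeR adjusted p = 0.0679) and without Achilles 1 or 3 or Supraspinatus 1, 3 or 4.

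Lum encodes lumican, which shares the collagen site of fibromodulin and acts earlier in fibril assembly. It was highest in Flexor, with 335, 290, 514 and 367 CPM against 270, 139, 51.3 and 135 CPM in Achilles. Flexor was 2.53-fold higher (log2 1.34, SE 0.40, edgeR adjusted p = 0.0318), and every Flexor library was above every Achilles library. The adjusted p rose to 0.0569 to 0.101 without any of 5 single libraries (Achilles 2, 3 or 4, Flexor 3 or 4), and was 0.0727 with no filter on low counts. Patellar (372, 253, 207 and 307 CPM) and Supraspinatus (175, 170, 241 and 433 CPM) overlapped Flexor, and none of the other 5 comparisons passed the edgeR test. Patellar minus Achilles was called with DESeq2 (log2 0.95, adjusted p = 0.0429) and with limma and voom (log2 1.13, adjusted p = 0.0311).

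Prelp encodes prolargin, a member rich in arginine and proline that links basement membranes and collagen. Its order was Achilles, Flexor, Patellar and Supraspinatus. Achilles libraries had 1032, 1508, 595 and 1145 CPM, all below Flexor (1942, 2183, 2036 and 2706 CPM), Patellar (4242, 3181, 2017 and 3041 CPM) and Supraspinatus (3993, 2827, 4728 and 3829.9 CPM). Prelp was 2.07-fold above Achilles in Flexor (log2 1.05, SE 0.27, edgeR adjusted p = 0.0157), 2.92-fold in Patellar (log2 1.54, SE 0.28, edgeR adjusted p = 0.00046) and 3.59-fold in Supraspinatus (log2 1.85, SE 0.28, edgeR adjusted p = 0.000131). Patellar and Supraspinatus, neighbours in this order, overlapped and did not pass the test (log2 0.30, 95% interval −0.23 to 0.83). Flexor and Patellar, also neighbours in it, overlapped too and did not pass (log2 0.49, edgeR adjusted p = 0.145). Supraspinatus was 1.73-fold above Flexor (edgeR adjusted p = 0.0407), with the call lost without any of 7 single libraries.

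Kera encodes keratocan, a keratan sulfate member best known from the cornea. It was low in Achilles (33.5, 56.1, 19.1 and 61.0 CPM) and Flexor (38.1, 19.3, 35.1 and 23.6 CPM). Patellar libraries had 334, 350.1, 223 and 372 CPM, and Supraspinatus libraries 209, 83.3, 152 and 848 CPM. Every Patellar and Supraspinatus library was above every Achilles and Flexor library, although Supraspinatus libraries were far apart. Kera was 7.53-fold higher in Patellar than in Achilles (log2 2.91, SE 0.58, edgeR adjusted p = 0.00106) and higher than in Flexor (log2 3.46, SE 0.60, edgeR adjusted p = 0.000177). In Supraspinatus it was 7.61-fold above Achilles (log2 2.93, SE 0.58, edgeR adjusted p = 0.00121) and 11.1-fold above Flexor (log2 3.48, SE 0.60, edgeR adjusted p = 0.00038).

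Kera in Supraspinatus rested in part on Supraspinatus 4. Without that library the change over Achilles was 1.81 log2 (edgeR adjusted p = 0.00231) and over Flexor 2.35 log2 (edgeR adjusted p = 0.000372). Supraspinatus minus Patellar was 0.02 log2 with it (95% interval −1.05 to 1.08) and −1.10 log2 without it (edgeR adjusted p = 0.0285). Tenocyte markers, a list of 10 genes that includes Fmod, took 3.10% of counts in Supraspinatus 4 and 0.734% to 1.48% in the other 3, and their part in the Kera level was not tested. With the muscle marker level as a covariate, Kera in Patellar was 2.81 log2 over Achilles (edgeR adjusted p = 0.107) and 3.34 log2 over Flexor (edgeR adjusted p = 0.0734).

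Omd encodes osteomodulin (osteoadherin), a keratan sulfate member known from mineralised tissue. It was highest in Achilles (22.2, 97.1, 26.1 and 60.3 CPM) and lowest in Flexor (13.1, 12.6, 11.4 and 9.81 CPM), with no overlap. Flexor was 4.39-fold lower (log2 −2.13, SE 0.41, edgeR adjusted p = 0.0023). Patellar libraries (21.6, 22.7, 11.2 and 25.8 CPM) were lower than Achilles (log2 −1.34, SE 0.40, edgeR adjusted p = 0.0154), although the groups overlapped. That call was lost without Achilles 2 (edgeR adjusted p = 0.08), with the muscle marker level as a covariate (edgeR adjusted p = 0.379), with limma and voom (adjusted p = 0.0596) and with only the 8 libraries of the pair (edgeR adjusted p = 0.0585). Supraspinatus libraries (37.3, 26.3, 23.7 and 14.6 CPM) overlapped Achilles. That pair was not called (log2 −1.01 for Supraspinatus minus Achilles, edgeR adjusted p = 0.0605), although it was with DESeq2 (adjusted p = 0.0373). Osteoblast markers took 0.151% to 0.356% of counts in Achilles, 0.0666% to 0.154% in Flexor, 0.00691% to 0.0215% in Patellar, and Supraspinatus had 0.00247% to 0.00620%. Achilles 2 was highest in both Omd and the share of these 10 markers, whose part in the Omd difference was not tested. Spp1 and Ibsp made up most of that share in Achilles, with means of 1505 and 514 CPM. Dmp1, Runx2, Mepe and Phex did not have their highest mean in Achilles, with Dmp1 at 0.733 CPM there and 2.81 in Patellar. Omd was also 2.17-fold higher in Supraspinatus than in Flexor (log2 1.12, SE 0.40, edgeR adjusted p = 0.0484), a call lost without any of 10 single libraries.

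Ogn encodes osteoglycin (mimecan), known from bone, cornea and vessel wall. It was highest in Patellar, with 296, 506, 552 and 599.9 CPM, then Achilles with 169, 263, 194 and 358 CPM. Flexor (128, 119.6, 124 and 172 CPM) and Supraspinatus (152, 116, 107 and 147 CPM) were lowest and overlapped each other. Patellar was 1.99-fold above Achilles (log2 0.99, SE 0.25, edgeR adjusted p = 0.00485), with an overlap of 1 library each way. It was 3.60-fold above Flexor (log2 1.85, SE 0.25, edgeR adjusted p = 2.04e-05) and 3.74-fold above Supraspinatus (log2 −1.90 for Supraspinatus minus Patellar, SE 0.25, edgeR adjusted p = 1.22e-05), with no overlap. Achilles was also above Supraspinatus (log2 −0.91 for Supraspinatus minus Achilles, SE 0.25, edgeR adjusted p = 0.00934) and above Flexor (log2 −0.86 for Flexor minus Achilles, edgeR adjusted p = 0.0252, lost without any of 5 single libraries). With the muscle marker level as a covariate, Patellar was 0.12 log2 over Achilles (edgeR adjusted p = 0.904) and 0.90 log2 over Flexor (edgeR adjusted p = 0.282), and Supraspinatus minus Patellar was −0.83 log2 (edgeR adjusted p = 0.397).

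Epyc encodes epiphycan, known from growth plate cartilage, and was the rarest member. Patellar libraries held 0, 11, 1 and 2 reads, or 0, 0.143, 0.0347 and 0.0538 CPM. Achilles had 0.590, 0.288, 0.130 and 0.401 CPM, Flexor 1.23, 1.25, 1.998 and 0.661 CPM, and Supraspinatus 0.422, 0.655, 1.58 and 3.27 CPM. Patellar was below every Flexor and Supraspinatus library and overlapped Achilles. The log2 fold change was −4.23 for Patellar minus Flexor (SE 0.81, edgeR adjusted p = 0.000454), 4.43 for Supraspinatus minus Patellar (SE 0.82, edgeR adjusted p = 0.000284) and −2.36 for Patellar minus Achilles (SE 0.81, edgeR adjusted p = 0.03), each resting on few Patellar reads. With the muscle marker level as a covariate these became −10.26, 11.08 and −7.84 log2 (edgeR adjusted p = 0.0133, 0.0175 and 0.0411), so their size is not settled. Flexor minus Achilles was 1.86 log2 and not called (edgeR adjusted p = 0.0669), but it was called with DESeq2 (adjusted p = 0.0248) and with limma and voom (adjusted p = 0.0425). The call in Patellar minus Achilles was lost without any of 5 single libraries, as was the higher level in Supraspinatus than in Achilles (log2 2.07, SE 0.66, edgeR adjusted p = 0.0253). Chondrocyte markers (10 genes) took 0.0347% to 0.0531% of counts in Achilles, 0.0378% to 0.0800% in Flexor, 0.0292% to 0.0451% in Patellar and, for Supraspinatus, 0.00475% to 0.0134%. Their part in the Epyc differences was not tested.

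The sources used here do not give the strand setting of the counting, so reads from genes on the opposite strand cannot be told apart where exons overlap. Gm10754 shares 40.6% of the Epyc exon bases and reached at most 0.0911 CPM. Gm15851 shares 9.68% of the Prelp exon bases and had 0.150 to 2.41 CPM, far below Prelp. Cenpp runs across Aspn, Omd and Ogn, shares 7 exon bases with Aspn and had 1.32 to 5.51 CPM.

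**Figure D3:**
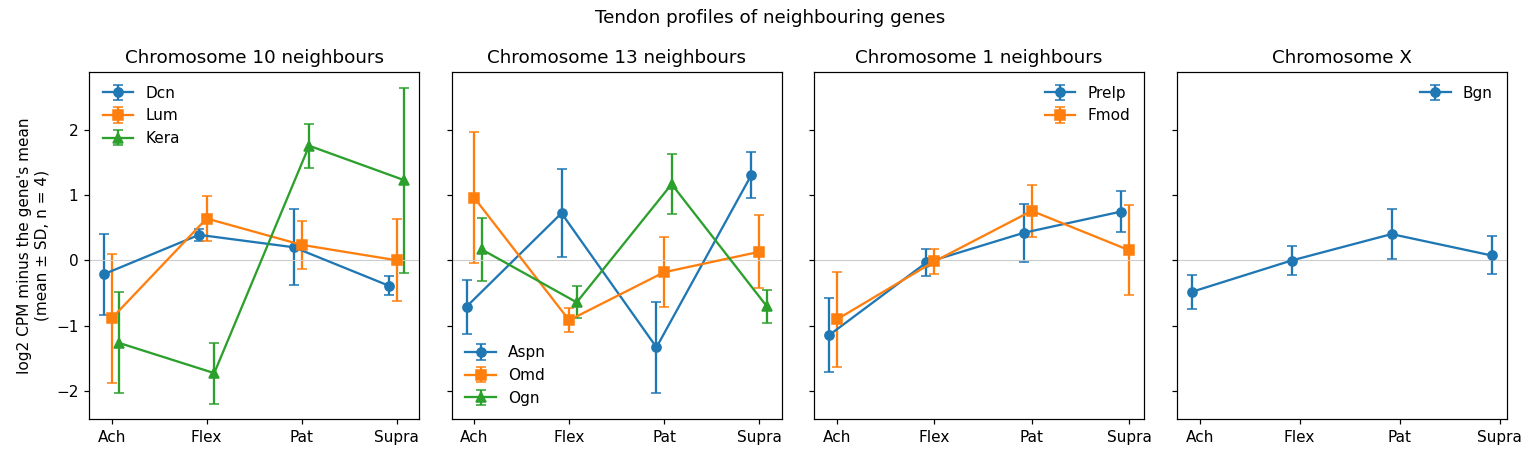
Log2 CPM minus the gene's mean over all libraries, by tendon and chromosome, with points and bars for the mean ± SD of 4 libraries and lines joining the tendons of 1 gene. Aspn, Omd and Ogn on chromosome 13 have their highest means in Supraspinatus (499 CPM), Achilles (51.4 CPM) and Patellar (489 CPM), and Epyc is left out because 1 library is at 0.

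Per kilobase of exon, which allows levels of different genes to be compared, 3 members made up most of the family in every tendon. Dcn took 51.2% ± 4.50 (SD, n = 4) of the summed CPM per kilobase in Achilles, 46.6% ± 2.69 in Flexor and 33.6% ± 6.34 in Patellar, while Supraspinatus had 27.7% ± 4.38. The lowest Achilles and Flexor shares of Dcn (46.3% and 44.0%) were above the highest in Patellar (41.5%) and Supraspinatus (32.8%). Fmod took 24.2% ± 5.10, 26.8% ± 3.86, 37.2% ± 4.62 and 31.0% ± 7.50 in the same order. Prelp took 11.3% ± 1.02, 14.7% ± 2.10, 16.3% ± 1.47 and 25.7% ± 4.29, and its lowest Supraspinatus share (20.1%) was above its highest elsewhere (17.9%). The exon length includes every annotated transcript, and without it the Dcn share was 64.2% in Achilles and 39.7% in Supraspinatus. Together the 10 genes took 1.40% ± 0.558 (SD, n = 4) of all counts in Achilles, 1.98% ± 0.151 in Flexor and 2.19% ± 0.675 in Patellar, while Supraspinatus had 1.48% ± 0.302. These are shares of unscaled counts, which in Patellar include 13.2% to 42.0% from rRNA-like genes. The summed TMM-scaled CPM per kilobase was 2648 ± 962 in Achilles, 4159 ± 105 in Flexor and 5261 ± 1326 in Patellar, while Supraspinatus had 4191 ± 934.

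**Figure D4:**
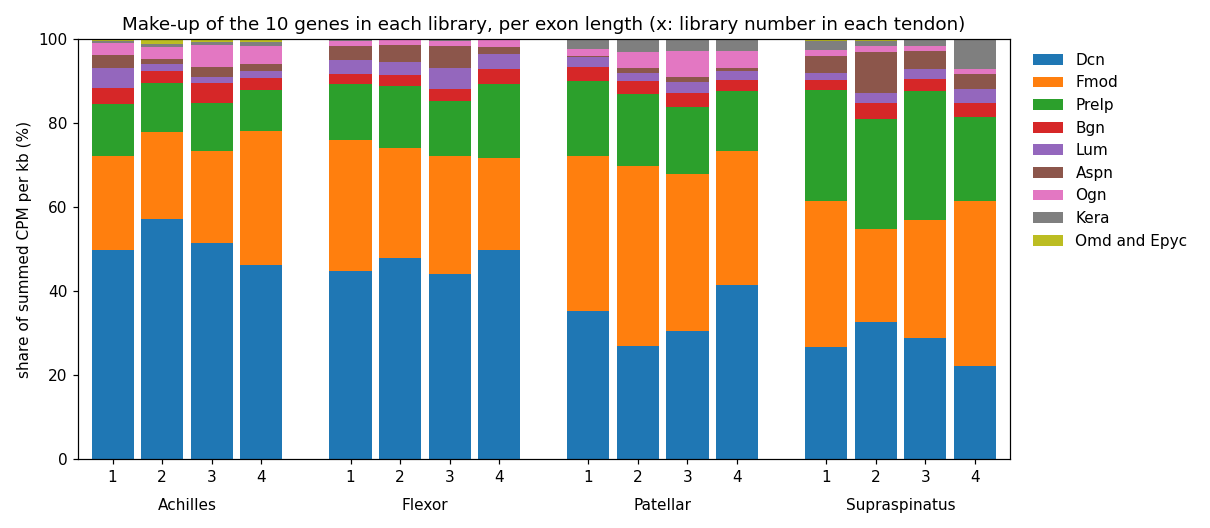
Share (%) of each member in the family's summed CPM per kilobase of exon, in 1 stacked bar from 0 for each of the 16 libraries, with Omd and Epyc joined. The Dcn share averages 51.2% in the Achilles bars and 27.7% in the Supraspinatus bars, and the Prelp share 11.3% and 25.7%.

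Members that are thought to stand in for each other differed in balance. The ratio of Bgn to Dcn per kilobase was 0.0691 ± 0.0180 (SD, n = 4) in Achilles, 0.0622 ± 0.00644 in Flexor and 0.0961 ± 0.0229 in Patellar, while Supraspinatus had 0.114 ± 0.0205. Supraspinatus (0.0930 to 0.141) overlapped neither Achilles (0.0507 to 0.0905) nor Flexor (0.0556 to 0.0691). The ratio of Fmod to Lum was 12.9 ± 5.87, 7.52 ± 1.85, 16.9 ± 3.15 and 13.5 ± 4.77 in the same order of tendons. Flexor (5.70 to 9.17) overlapped neither Patellar (14.8 to 21.5) nor Supraspinatus (9.54 to 20.4). These ratios were not tested.

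**Figure D5:**
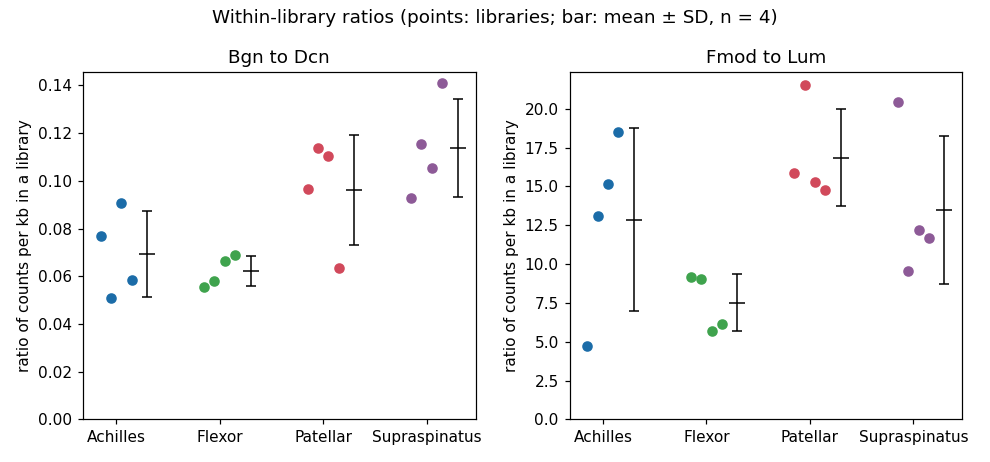
Ratio of Bgn to Dcn and of Fmod to Lum, per kilobase of exon, in each library, with the mean and SD per tendon. Supraspinatus lies above all Achilles and Flexor libraries for Bgn to Dcn, and Flexor lies below all Patellar and Supraspinatus libraries for Fmod to Lum.

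Among 8 further genes of the wider family, 4 differed over the 4 tendons. This count and those over the 4 tendons for the lists that follow stand beside the 64.9% of all genes that differed. Chad, which encodes the cartilage protein chondroadherin, averaged 5437 ± 2414 CPM (SD, n = 4 for each tendon) in Achilles, 4133 ± 1386 in Flexor and 2162 ± 374 in Patellar, while Supraspinatus had 1827 ± 539. It was lower in Patellar and in Supraspinatus than in Achilles (log2 −1.33 and −1.57, edgeR adjusted p = 0.0046 and 0.00176). Podn, Tsku and Chadl were the other 3 called, with Podn at 47.3 CPM in Patellar and 21.8 in Supraspinatus. Ecm2, which neighbours Aspn, did not pass (153 to 206 CPM as tendon means).

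Of 21 linkage, chondroitin and dermatan sulfate enzymes tested, 15 differed over the tendons. In Supraspinatus against Flexor 8 were higher and 1 lower, where 27.1% of all genes were called. In Patellar against Flexor 8 were higher and 3 lower, a share near the 50.3% of all genes. B3galt6, which adds a galactose of the linkage region, averaged 1.70 ± 0.150 CPM in Flexor and 9.89 ± 1.68 in Supraspinatus. Of 11 keratan sulfate and tyrosine sulfation enzymes, 8 differed. In Flexor against Achilles 4 were lower and 0 higher, where 16.2% of all genes were called. In Patellar against Flexor 5 were higher and 0 lower, a share near the 50.3% of all genes.

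Chst1, the sulfotransferase for galactose in keratan sulfate, averaged 34.2 ± 13.9 CPM in Achilles, 5.19 ± 1.54 in Flexor and 62.1 ± 27.8 in Patellar, while Supraspinatus had 5.61 ± 1.63. It was lower in Flexor than in Achilles (log2 −2.72, SE 0.38, edgeR adjusted p = 0.000195), and Supraspinatus was below Patellar (log2 −3.47, SE 0.39, edgeR adjusted p = 2.46e-06). Supraspinatus thus had low Chst1 beside its high Kera, while Patellar had high levels of both. Tpst1, a tyrosylprotein sulfotransferase, averaged 42.5 CPM in Achilles, 15.6 in Flexor and 61.4 in Patellar, while Supraspinatus had 23.1.

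The list of collagens that the family binds held 10 genes, of types I, III, V, VI, XII and XIV. Of these, 9 were higher in Patellar than in Achilles and 0 lower, where 38.4% of all genes were called. Their median log2 fold change was 1.26 against −0.01 for all genes. Against Flexor 4 were higher in Patellar and 0 lower, where 50.3% of all genes were called. Col1a1 averaged 5716 ± 2378 CPM in Achilles, 4636 ± 947 in Flexor and 16111 ± 4145 in Patellar, while Supraspinatus had 5046 ± 3558. In Flexor against Achilles 1 was higher (16.2% of all genes called) and in Supraspinatus against Achilles 3 were (33.6% called), with 0 lower in either. Scaled to Col1a1 plus Col1a2, members in Patellar were lower relative to collagen I than the CPM shows: Ogn in Patellar minus Achilles was −0.40 log2 (edgeR adjusted p = 0.512), and Dcn in Supraspinatus minus Patellar was 1.41 log2 (edgeR adjusted p = 0.0399).

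Of 11 receptors reported to bind members of the family, 9 differed. Tlr4, a receptor for soluble biglycan, averaged 27.7 ± 4.85 CPM in Achilles, 63.9 ± 17.2 in Flexor and 19.2 ± 6.31 in Patellar, while Supraspinatus had 58.8 ± 19.9. It was 1.21 log2 higher in Flexor than in Achilles (SE 0.29, edgeR adjusted p = 0.0098), and Patellar did not pass against Achilles (log2 −0.53, edgeR adjusted p = 0.163). Of 11 proteases that cut members, 7 differed. Bmp1, which removes the propeptide of biglycan, averaged 43.0 ± 8.16 CPM in Achilles, 29.7 ± 3.60 in Flexor and 199 ± 55.1 in Patellar, while Supraspinatus had 102 ± 45.0. It was 2.21 log2 higher in Patellar than in Achilles (SE 0.26, edgeR adjusted p = 1.29e-05). Adamts5, an aggrecanase, averaged 19.7 ± 2.27 CPM in Supraspinatus and 58.6 to 98.3 as the means elsewhere, and Supraspinatus was below each other tendon (edgeR adjusted p = 1.5e-06, 1.24e-05 and 1.48e-07 against Achilles, Flexor and Patellar).

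Genes with the most similar profiles were found as those with the smallest root mean square difference of log2 CPM, each gene centred on its own mean over the 16 libraries, among 9208 genes of at least 10 CPM. Fmod was closest to Ssc5d (0.31) and Pcolce (0.33), which encodes an enhancer of procollagen processing. Bgn was closest to Cpt1c (0.13) and Lmna (0.15), and Dcn to Map2 and Vamp4 (0.28 each). Lum was closest to Fstl1 (0.41) and Col6a1 (0.42), a collagen VI chain. Prelp was closest to Cd44 (0.32), a hyaluronan receptor, and Igfbp6 (0.33). Ogn was close to Tmem120a (0.27), Aspn to Tppp (0.44) and Stmn2 (0.48), Omd to Nuak1 (0.51) and Tenm3 (0.55), and Kera to Ccdc3 (0.67) and the noncoding RNA Rian (0.72). A member that varies little gives small differences, so these values do not rank closeness between members. Each member's own root mean square distance from its mean was 0.41 for Bgn, 0.49 for Dcn, 0.76 for Fmod and 0.79 for Lum. It was 0.80 for Prelp, 0.82 for Ogn, 0.86 for Omd, 1.16 for Aspn and 1.68 for Kera. These libraries share tissue make-up and depth, and Epyc was below 10 CPM.

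The authors' deposited table of comparisons holds 9 of the members, all but Epyc, which gives 54 values. In the authors' deposited table and in the edgeR fit made here, 24 of these were called by both, with 0 in opposite directions, and 23 by neither. A further 6 were called only in the authors' deposited table and 1 only here, Bgn in Supraspinatus minus Achilles.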

How the data were processed

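RNA from 4 tendons of C57BL/6J mice (4 libraries each) was analysed from a gene count table. Per the labels, total RNA was purified with a column kit and DNase I and made into standard Illumina libraries. The submitters' processing notes name HISAT2, FastQC, edgeR and mm10; the sources used here give no counter, strand setting, annotation release or versions. The authors deposited raw counts per gene and a table of log2 fold changes and p-values, which served only for the comparison of calls.

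The 10 members, the other gene lists and the markers were chosen with earlier results of these data known. Of 41204 genes, 23754 passed filterByExpr by tendon. Counts were TMM-scaled and fitted with edgeR 4.0.16 (robust quasi-likelihood, 1 mean per tendon over 16 libraries, 2-sided, Benjamini-Hochberg over all genes tested, threshold 0.05) in R 4.3.3. The code was tested on simulated counts. All 10 members are described. From each other list, genes were named from the 4 with the smallest adjusted p over all tendons at a mean of at least 1 CPM; Chadl, Podn and Tsku are given in brief, and Ecm2 was added after its values were seen. The 2 nearest profiles per member are named, except 1 gene that is not reported here. Ratios and shares use CPM per kilobase of exon union (GENCODE on GRCm38). Figures were drawn with matplotlib 3.10.9. Alternatives included DESeq2 1.42.0 and limma 3.58.1 with voom, other scalings and filters, a replicate block, a muscle covariate and leaving out each library. P-values set the differences between tendon means against the spread between these libraries.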

Additional observations from a re-analysis of the deposited data

Results flagged for a closer look

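In 3 of 48 groups of 4 libraries, 1 library stood apart from the rest of its tendon by more of the group's range than Dixon's 95% critical value allows. Chance gives about 1 in 20 such groups. Kera in Supraspinatus was 848 CPM in 1 library, and the next was 209 CPM. Ogn in Flexor was 172 CPM in 1 library, and the next was 128 CPM. The ratio of Fmod to Lum in Patellar was 21.5 in 1 library, and the next was 15.9.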

How the results depend on the processing

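Of 60 member values (10 genes in 6 pairs), 29 were called, and 14 of those kept direction and side of the threshold in every alternative except scaling to Col1a1 plus Col1a2; without that scaling no called value changed sign. The number of members called in Patellar minus Achilles was 4 with the muscle marker level as a covariate (7 as reported), and in Patellar minus Flexor 2 (4 as reported). Leaving out Achilles 3 and Patellar 3 together, an alternative chosen after the data were seen because these had the lowest Dcn of their tendons, gave 8 in Patellar minus Flexor, where Bgn, Fmod, Prelp and Omd were added. In that fit Bgn, Fmod and Epyc were no longer called in Supraspinatus minus Achilles, while Omd there (adjusted p = 0.0177) and Dcn in Supraspinatus minus Flexor (adjusted p = 0.0153) and minus Patellar (adjusted p = 0.00719) were. With the scaling to Col1a1 plus Col1a2, also chosen after the data were seen, the counts were 4 in Patellar minus Achilles, 4 in Supraspinatus minus Achilles (7 as reported), 7 in Patellar minus Flexor and 9 in Supraspinatus minus Patellar (3 as reported). This scaling moves all genes of a library by the same factor, and Col1a1 and Col1a2 were 1.49 and 1.26 log2 higher in Patellar than in Achilles. Its values therefore describe levels relative to collagen I. The cause of the changes under the other alternatives was not tested.

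Leaving out 1 library at a time gave 3 to 6 members called in Flexor minus Achilles, 4 to 8 in Supraspinatus minus Achilles and 1 to 4 in Supraspinatus minus Flexor. Whether equal mouse numbers mark the same animal could not be settled from the counts. Of 24 same-number correlations of deviations, 5 were over 0.1 (−0.185 to 0.386), the highest between Supraspinatus 4 and Flexor 4. Of 16 libraries, 5 correlated best with their own number. With the replicate block, Epyc in Patellar minus Achilles (adjusted p = 0.0531), Bgn in Supraspinatus minus Achilles (adjusted p = 0.0595) and Epyc in Supraspinatus minus Achilles (adjusted p = 0.0777) were not called, and Kera in Supraspinatus minus Patellar was −0.32.

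Signs changed as follows (log2), all in uncalled values except under the collagen scaling. Kera in Supraspinatus minus Patellar was −0.0019 with median-ratio size factors, −0.0018 with DESeq2, −0.22 with a mean of at least 5 CPM, −0.53 with limma and voom, −0.022 with only 8 libraries, −0.11 without Achilles 3 and Patellar 3, and −1.10 to 0.35 over the fits that each left out 1 library (below 0 without Supraspinatus 4 or Patellar 3). Dcn in Patellar minus Flexor was 0.073 with a mean of at least 5 CPM, 0.65 with the muscle covariate, 0.083 without Achilles 3 and Patellar 3, and −0.32 to 0.036 with 1 library left out (above 0 without Patellar 2 or 3). With the muscle covariate Ogn in Supraspinatus minus Flexor was 0.076 and Prelp in Supraspinatus minus Patellar −0.053. Epyc in Supraspinatus minus Flexor was −0.12 with limma and voom and −0.54 to 0.52 with 1 library left out (below 0 without Supraspinatus 4). With 1 library left out, Supraspinatus minus Flexor was −0.057 to 0.21 for Bgn, −0.14 to 0.099 for Ogn and −0.0025 to 0.51 for Fmod, and Lum in Supraspinatus minus Patellar was −0.53 to 0.013. Scaled to Col1a1 plus Col1a2, which also turned the called values of Bgn and Ogn in Patellar minus Achilles (0.91 and 0.99 as reported) and of Ogn in Supraspinatus minus Patellar (−1.90 as reported), Patellar minus Achilles was −0.98 for Dcn, −0.62 for Bgn, −0.47 for Lum and −0.40 for Ogn; Supraspinatus minus Achilles was 0.43 for Dcn. In Patellar minus Flexor it was −1.44 for Bgn, −1.01 for Fmod, −1.39 for Prelp and −1.01 for Omd, in Supraspinatus minus Flexor 0.15 for Ogn, and in Supraspinatus minus Patellar 1.41 for Dcn, 1.71 for Bgn, 1.31 for Fmod, 1.70 for Lum and 0.055 for Ogn. Epyc falls below the filter of at least 5 CPM and has no value there.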
